A study of Mus musculus with 8 samples.

Results

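The 10 genes described here carry the response of the mouse mammary gland to ovarian steroids and prolactin. They were taken by name from the 49671 genes of the deposited table, and all 10 were found: the receptors Esr1, Pgr, Prlr and Calcr, the transcriptional regulators Foxa1, Tbx3 and Cited1, the hormone-responsive genes Greb1 and Stc2, and the ligand gene Tnfsf11. Their levels were read in 8 bulk RNA-seq libraries, 2 in each of 4 groups of sorted cells from the mammary glands of female mice of mixed backgrounds. Cells negative for the blood, endothelial and fibroblast markers CD45, CD31 and CD140a were divided into CD24+ CD29 low luminal cells (40000 sorted per library) and CD24+ CD29 high basal cells (5000 sorted per library). The CD1 luminal and CD1 basal groups came from CD1 mice. The DNp63 luminal and DNp63 basal groups were GFP+ cells of K8rtTA/TetOCre/Rosa26-DNp63-IRES-GFP mice, in which the keratin 8 promoter of luminal cells drives a doxycycline-dependent activator, the activator drives Cre, and Cre switches on the deltaN isoform of p63, a basal transcription factor, together with GFP. By this design the label of the DNp63 basal cells would begin in luminal cells, which was not tested here. Strain, Cre, doxycycline and the GFP gate all went with the transgene and cannot be told apart from it, and neither the age of the mice nor the induction schedule of these DNp63 mice is given in the sources used here.

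In the mammary gland the receptors for estrogen (Esr1) and progesterone (Pgr) are known to be confined largely to a subset of luminal cells, which sense the hormones and pass the message on to their neighbours through secreted ligands such as amphiregulin, Wnt4 and RANKL. Foxa1 is a pioneer factor that opens chromatin for the estrogen receptor, and prolactin acts through its receptor, the kinase Jak2 and the transcription factor Stat5. Basal cells are the contractile outer layer and are known for p63, keratins 5 and 14 and smooth muscle actin.

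Values were reads scaled to a total of 20000000 per library and rounded up, and are called normalised reads here. A single read was worth 2.78 to 4.83 of these units, because the libraries held 4136998 to 7206741 gene-assigned reads. Libraries of the same group correlated at 0.965 to 0.980 over the log2 values of the genes tested. Trp63, which encodes p63, was listed at 61 and 45 in CD1 luminal and at 1297 and 1460 in DNp63 luminal cells, a log2 difference of 4.46 (adjusted p = 2.2e-05). In the basal gate, where the gene is active without the transgene, it was at 5457 and 7079 in CD1 and 8088 and 8306 in DNp63 cells (0.38, adjusted p = 0.48). Between the CD1 gates all 10 basal epithelium markers were higher and all 11 general luminal epithelium markers lower on the basal side. The basal gate also held RNA of cells that the sort was meant to remove or lacked a marker for. Summed levels of 12 endothelial markers were 42403 to 60747 in the 4 basal libraries and 1861 to 2344 in the 4 luminal ones, and CD31 itself (Pecam1) was listed at 4980 to 8163 in the basal gate. Fibroblast marker sums ran from 9177 to 44408 in luminal and from 16842 to 92675 in basal libraries. The second DNp63 library of both gates, labelled female like the rest, stood apart in Xist, the RNA of the inactive X chromosome. Xist was listed at 36 and 141 there and at 55545 to 111346 in the other 6 libraries. The 4 Y-linked genes read were at 0 to 4 in all 8, and the cause of the low Xist was not tested. Results that rest on these DNp63 libraries are also given without both of them, as counts of calls or as differences. Such a fit leaves 1 library in each DNp63 group. The labels do not state if the 2 libraries of a group are 2 animals, so the p-values measure the spread between these libraries. In CD1 mice Tnfsf11 was at 83 and 0 reads in the 2 luminal and at 17 and 0 in the 2 basal libraries. Whether such a spread lies between animals was not tested. The 2 DNp63 libraries of each gate differed in Xist as given above, so they were not repeats of 1 RNA sample.

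The promoters shown are 1 window for each of the 4 genes that were lower in the basal gate of CD1 mice and lower again in DNp63 basal cells, with 1 window of Greb1, which departed from them. Each is the 250 bases before a RefSeq start site (GRCm38.p6), on the strand of the gene, at chr12:57546112-57546361 (Foxa1, minus strand), chr15:10223656-10223905 (Prlr, plus), chr10:4709908-4710157 (Esr1, plus), chrX:102252182-102252431 (Cited1, minus) and chr12:16800887-16801136 (Greb1, minus). Capitals mark matches to the motifs searched, on either strand: the forkhead motif TGTTTAC in Foxa1 and Prlr, the STAT5 motif TTCNNNGAA in Prlr and Esr1, the TATA box TATAAA in Cited1 and AGGTCA, a single arm of an estrogen response element, in Greb1. All of these genes but Foxa1 had further windows, which are not printed. The Prlr windows at chr15:10176988-10177237 and chr15:10293401-10293650 held no match. The other Esr1 window, chr10:4611739-4611988, held no STAT5 match but a p53 family motif arm. The other Greb1 window held no match, and those of Cited1 held AGGTCA or TATAAA.
Foxa1: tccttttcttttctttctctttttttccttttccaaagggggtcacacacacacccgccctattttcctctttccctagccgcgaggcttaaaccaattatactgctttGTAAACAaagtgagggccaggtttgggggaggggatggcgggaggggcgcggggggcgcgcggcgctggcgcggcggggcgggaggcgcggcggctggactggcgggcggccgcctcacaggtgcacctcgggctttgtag
Prlr: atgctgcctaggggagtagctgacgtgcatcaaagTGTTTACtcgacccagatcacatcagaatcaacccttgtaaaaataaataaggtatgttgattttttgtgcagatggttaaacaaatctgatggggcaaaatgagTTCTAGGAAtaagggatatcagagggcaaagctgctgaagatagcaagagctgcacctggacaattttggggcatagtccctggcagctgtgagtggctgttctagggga
Esr1: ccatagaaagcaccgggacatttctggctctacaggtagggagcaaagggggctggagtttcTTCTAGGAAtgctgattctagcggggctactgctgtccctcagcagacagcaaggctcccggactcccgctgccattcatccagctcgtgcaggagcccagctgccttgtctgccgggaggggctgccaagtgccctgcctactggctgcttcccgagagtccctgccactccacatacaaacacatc
Cited1: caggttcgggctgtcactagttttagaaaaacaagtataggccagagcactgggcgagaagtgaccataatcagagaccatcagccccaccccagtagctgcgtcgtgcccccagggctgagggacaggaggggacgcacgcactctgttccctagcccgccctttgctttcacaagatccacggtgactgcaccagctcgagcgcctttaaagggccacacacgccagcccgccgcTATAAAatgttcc
Greb1: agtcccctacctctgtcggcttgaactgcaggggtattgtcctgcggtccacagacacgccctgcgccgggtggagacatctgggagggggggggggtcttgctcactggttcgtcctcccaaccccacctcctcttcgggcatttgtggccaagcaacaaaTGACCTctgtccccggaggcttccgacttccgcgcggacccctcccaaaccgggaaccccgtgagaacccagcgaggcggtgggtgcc
RefSeq windows were found for 9 of the 10 genes, 16 windows in all, and Tbx3 had no entry. Forkhead matches were in 2 of these 16 windows and in 3.17% of all 32851 promoter windows. STAT5 matches were in 2 of the 16 and in 7.02% of all windows, TATAAA in 4 of the 16 and 12.4% of all, and AGGTCA in 2 of the 16 and 14.0% of all. The full estrogen response element (GGTCA and TGACC with 3 bases between) was in none of the 16 windows and in 0.0639% of all. A single p53 family motif arm was in 1 window of Esr1 and in 7.13% of all windows. G and C made up 32.8% to 70.8% of the 16 windows, against a median of 52.4% over all of them. A match describes these letters and no more.

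In CD1 mice 7 of the 10 genes were lower in basal than in luminal cells and 2 did not pass the test. The last, Calcr, was higher, but it entered the test only through its basal values. Over all 16900 genes tested, 44.3% were called in this comparison (24.2% higher and 20.1% lower in basal cells), so a call alone was common here. The median log2 difference of the 10 genes was -2.33, and that of all genes tested was -0.01. Differences are of log2(value + 8) after scaling, tested with limma and called at a Benjamini-Hochberg adjusted p under 0.05. In these bulk samples fewer cells of a type and less RNA per cell cannot be told apart.

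**Figure D1:**
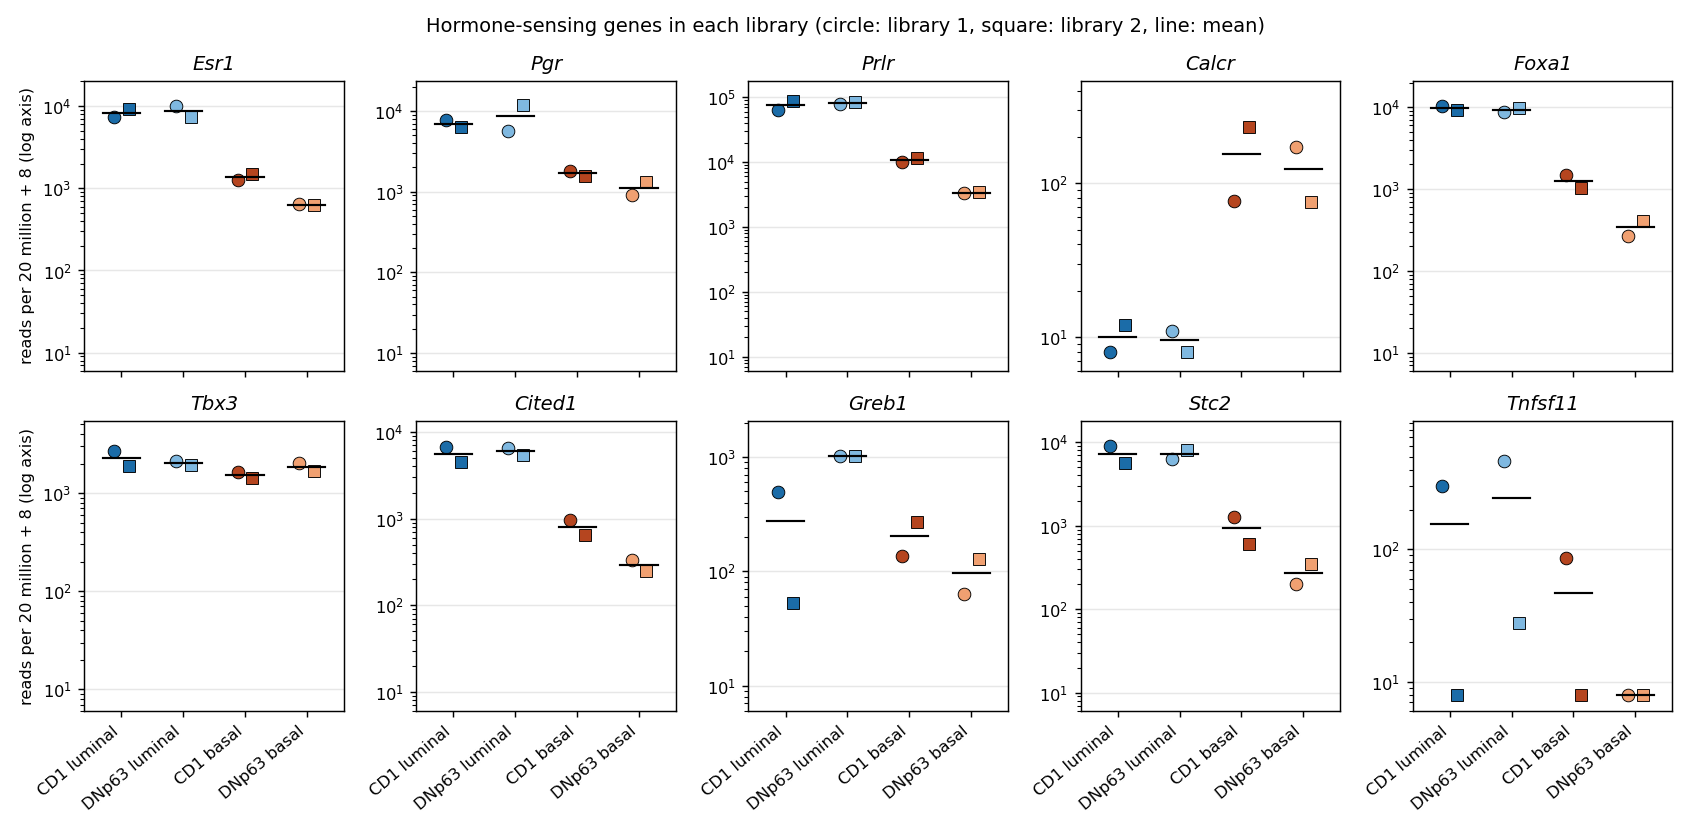
Level of each hormone-sensing gene in every library, as normalised reads (per 20000000) + 8 on a log axis (circle for library 1, square for library 2, line for the group mean). Esr1, Pgr, Prlr, Foxa1, Cited1 and Stc2 are high in all 4 luminal libraries and low in all 4 basal ones, Calcr is the reverse, and Tbx3 is nearly level.

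Among the receptors, Esr1 (ENSMUSG00000019768, estrogen receptor alpha, chr10:4611593-5005614) was at 7283 and 9073 in CD1 luminal cells and at 1241 and 1470 in CD1 basal cells. The groups did not overlap, and the log2 difference was -2.60 ± 0.19 (SE, adjusted p = 1.6e-05), a 6.05-fold lower level. Pgr (ENSMUSG00000031870, progesterone receptor, chr9:8899833-8968611) was at 7642 and 6328 in luminal and at 1781 and 1577 in basal cells. Its difference, -2.06 ± 0.31 (adjusted p = 0.000848), was the smallest of the 3 steroid and prolactin receptors. Prlr (ENSMUSG00000005268, prolactin receptor, chr15:10177238-10349180) had the highest values of the 10, 63919 and 89018 in luminal and 9985 and 11534 in basal cells. It was 7.09-fold lower in basal cells (log2 difference -2.83 ± 0.17, adjusted p = 6.09e-06).

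Calcr (ENSMUSG00000023964, calcitonin receptor, chr6:3685680-3764714) was listed at or near 0 in the luminal gate. It was at 0 and 4 in CD1 luminal and at 69 and 224 in CD1 basal cells, that is 0 and 1 against 15 and 56 reads. In DNp63 mice it was at 3 and 0 in luminal and at 165 and 68 in basal cells. No luminal library held more than 1 read, and since the gene entered the test only through its basal values, its calls are not read as support here. The fitted difference in CD1 cells was 3.78, and with so few luminal reads its size depends on the added constant (2.25 with 32 and 5.81 with 1). Calcrl and Ramp2, which form the adrenomedullin receptor, were also higher in the CD1 basal gate, Ramp2 at 54 and 49 in luminal and 747 and 1003 in basal cells (3.87, adjusted p = 1.8e-05). All 12 endothelial markers, 8 of 9 pericyte markers and 10 of 11 adipocyte markers were higher in that gate too, and their part in the Calcr value was not tested. Adipocyte marker sums were 1294 to 2227 in the luminal and 16790 to 30200 in the basal libraries. Pericyte marker sums were 4464 to 6254 in the luminal and 19102 to 26227 in the basal libraries.

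Of the transcriptional regulators, Foxa1 (ENSMUSG00000035451, chr12:57540628-57546916) was at 10446 and 9280 in CD1 luminal and at 1488 and 1030 in CD1 basal cells. This was a 7.98-fold lower level (log2 difference -3.00 ± 0.22, adjusted p = 1.77e-05). Cited1 (ENSMUSG00000051159, a coactivator that works with the estrogen receptor, chrX:102247381-102252181) was at 6635 and 4442 in luminal and at 953 and 647 in basal cells (-2.79 ± 0.24, adjusted p = 4.53e-05). Both genes separated the gates with no overlap. Tbx3 (ENSMUSG00000018604, a T-box transcriptional repressor with a part in mammary development, chr5:119670669-119684724) was close to level, at 2688 and 1875 in luminal and 1617 and 1430 in basal cells. Its 1.49-fold lower basal level passed the test (-0.57 ± 0.18, adjusted p = 0.0298), but not without the first CD1 luminal library (-0.31, adjusted p = 0.161) or without either CD1 basal library (-0.64, adjusted p = 0.0717, without the first and -0.51, adjusted p = 0.135, without the second). An antisense gene, Tbx3os1, overlaps Tbx3 over 115 exon bases and was listed at 5 to 42, and without a stated strand setting reads of the 2 genes there cannot be told apart.

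The secreted and responsive genes split. Stc2 (ENSMUSG00000020303, the secreted glycoprotein stanniocalcin 2, chr11:31357307-31370074) was at 8918 and 5594 in luminal and at 1269 and 595 in basal cells, 8.14-fold lower (-3.02 ± 0.38, adjusted p = 0.000306). Greb1 (ENSMUSG00000036523, an estrogen-induced cofactor of the estrogen receptor, chr12:16670615-16800886) was at 490 and 45 in luminal and at 129 and 260 in basal cells. These groups overlapped (0.23 ± 0.87, adjusted p = 0.857). Tnfsf11 (ENSMUSG00000022015, which encodes RANKL, the progesterone-induced ligand, chr14:78277445-78308043) was at 295 and 0 in luminal and at 78 and 0 in basal cells, and these overlapped as well (-0.93 ± 1.83, adjusted p = 0.711). For Greb1 the direction turned on single libraries: the difference was 1.85 (adjusted p = 0.0213) without the first CD1 luminal library, -1.38 (adjusted p = 0.0529) without the second and -0.28 (adjusted p = 0.872) without the second CD1 basal library. In such fits the lone library of a group is assumed to vary like those of the other groups. An antisense gene, Gm48140, overlaps Greb1 over 736 exon bases, and reads there cannot be assigned to a strand either.

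**Figure D2:**
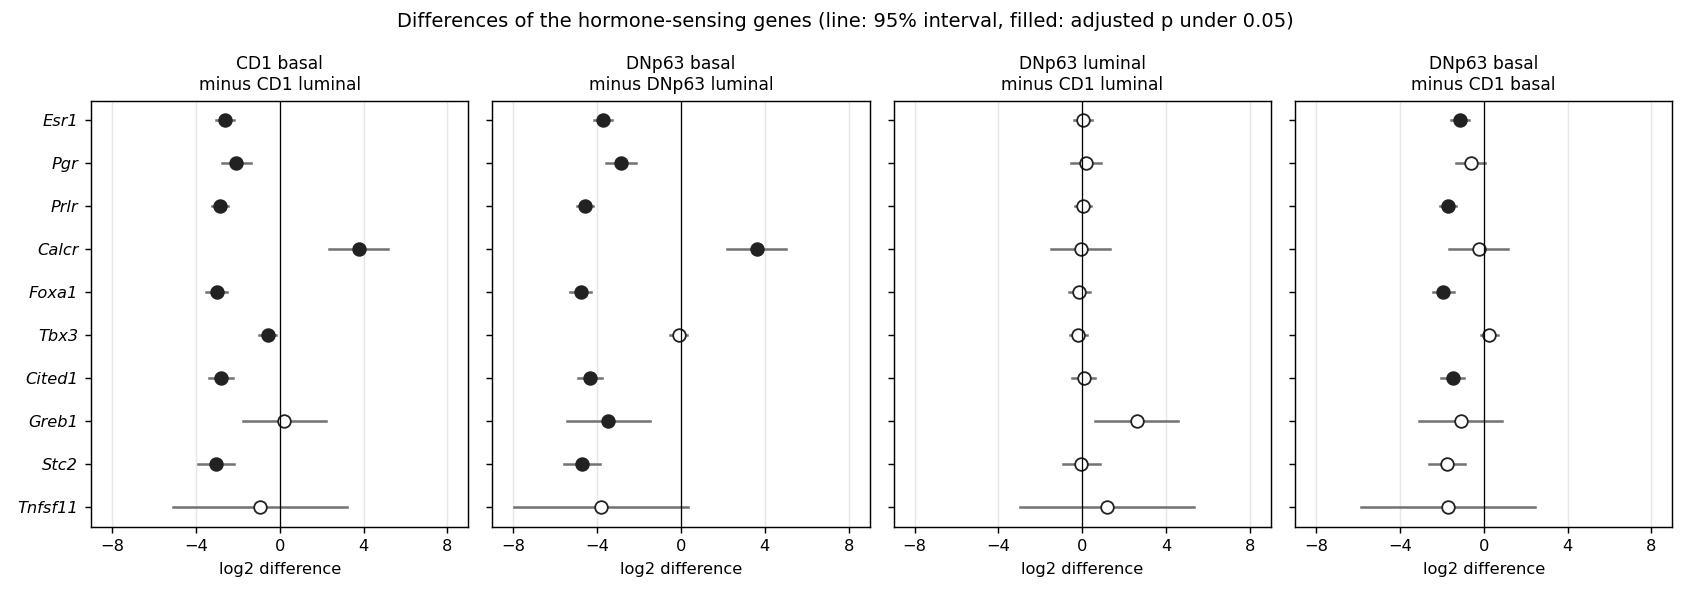
Log2 difference of each gene in 4 comparisons (point, filled where the adjusted p was under 0.05, with its 95% interval as a line). Apart from Greb1 and Tnfsf11, whose intervals are wide, all points of the DNp63 luminal comparison lie between -0.20 and 0.16, while Esr1, Prlr, Foxa1 and Cited1 are filled and below 0 for the DNp63 basal cells.

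The next comparison asked whether luminal cells of the DNp63 mice differed from CD1 luminal cells. None of the 10 genes passed the test in limma, 1 had an unadjusted p under 0.05, and none passed in a voom fit of the recovered reads. Of all genes tested 4.44% were called (2.66% higher and 1.78% lower). Esr1 was at 10066 and 7262 in DNp63 luminal cells, a log2 difference of 0.01 from CD1 luminal cells with a 95% interval of -0.41 to 0.44. Prlr was at 78980 and 83926 (0.05, interval -0.33 to 0.43), Foxa1 at 8803 and 9841 (-0.14, interval -0.64 to 0.36) and Cited1 at 6542 and 5341 (0.06, interval -0.49 to 0.62). For these 4 genes the luminal libraries of the 2 kinds of mice overlapped. Pgr was at 5590 and 11770 (0.16, interval -0.54 to 0.87), Stc2 at 6372 and 8010 (-0.04, interval -0.90 to 0.82) and Tbx3 at 2118 and 1945 (-0.20, interval -0.61 to 0.21).

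Greb1 was the gene with the unadjusted p below the threshold, and its adjusted p was 0.164. Its DNp63 luminal values, 1019 and 1006, were both above the CD1 luminal values of 490 and 45, a log2 difference of 2.59 ± 0.87. Without the first CD1 luminal library it was 4.21 (adjusted p = 0.00494, with the spread taken from the other groups and a single CD1 luminal value of 45), and without the second it was 0.98 (adjusted p = 0.395). Tnfsf11 was at 456 and 20 (1.17, adjusted p = 0.815). In the same comparison the genes of another luminal programme were lower: of 11 luminal progenitor and alveolar markers tested, 7 were lower and 1 was higher, and 3 were called without both second DNp63 libraries. Their summed levels were 216547 and 222443 in CD1 and 79064 and 88427 in DNp63 luminal cells. General luminal marker sums were 196428 and 202059 against 213154 and 209299.

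Basal cells of the DNp63 mice were then compared with CD1 basal cells. In them 4 of the 10 genes were lower and none was higher, where 0.716% of all genes tested were called (0.195% higher and 0.521% lower). The median log2 difference of the 10 was -1.30, beside -0.04 for all genes tested. Prlr was at 3279 and 3476 in DNp63 basal cells, 3.21-fold below the CD1 basal libraries (log2 difference -1.68 ± 0.17, adjusted p = 0.00518). Foxa1 was at 262 and 402 (-1.92 ± 0.22, adjusted p = 0.00912), 3.79-fold lower. Cited1 was at 321 and 242 (-1.48 ± 0.24, adjusted p = 0.0392) and Esr1 at 628 and 624 (-1.12 ± 0.19, adjusted p = 0.0407). For each of these 4, with 1 promoter window printed above, both DNp63 basal values were below both CD1 basal values. Stc2, at 190 and 339, was also below both CD1 basal values but did not pass (-1.76 ± 0.38, adjusted p = 0.0941). Pgr, at 911 and 1315, was 1.54-fold below CD1 basal cells with an interval of -1.33 to 0.08 (adjusted p = 0.504).

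The other 4 genes did not pass. Tbx3 was at 2007 and 1688 in DNp63 basal cells, 0.26 above CD1 basal cells (adjusted p = 0.671). Calcr overlapped between the groups (-0.24, adjusted p = 0.941), as 39 and 14 reads against 15 and 56. Greb1, at 55 and 121 against 129 and 260, was below both CD1 basal values, and its difference of -1.10 had an interval of -3.09 to 0.89 (adjusted p = 0.723). Tnfsf11 was listed at 0 in both DNp63 basal libraries, where 3 reads over the group would be a level of 6.76, and 0 was also the value of the second CD1 basal library.

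The calls of this comparison rested on few libraries, although the differences of the 4 called genes kept their direction. Of the 4 calls none was left without the first CD1 basal or the first DNp63 basal library, 1 without the second of either, and 3 without either DNp63 luminal library. Over all libraries left out singly, Prlr ran from -1.81 to -1.55, Foxa1 from -2.23 to -1.61, Cited1 from -1.73 to -1.23 and Esr1 from -1.26 to -0.97. Without both second DNp63 libraries, which held almost no Xist RNA, none was called, and the values were -1.73 for Prlr, -2.23 for Foxa1 (adjusted p = 0.0589), -1.29 for Cited1, itself on the X chromosome, and -1.12 for Esr1. With 1 library left in each DNp63 group, that loss of calls cannot be laid to the libraries left out. Without an intensity trend none of the 4 was called. With an added constant of 1, with no filter on low values or with voom on recovered reads 2 were, Prlr and Foxa1.

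Markers of other cells moved in the same samples. Of 11 general luminal markers 8 were lower in DNp63 basal than in CD1 basal cells, among them Krt8 (-0.97, adjusted p = 0.014) and Krt18 (-1.56, adjusted p = 0.0033), and none was higher. Of these 8 calls 4 were made by voom on recovered reads and 0 without both second DNp63 libraries. The sums of the 11 were 36749 and 28782 in CD1 basal cells against 16809 and 18909 in DNp63 basal cells, and none of the 11 was at 0 in any library. Sums of the 10 basal markers were 218827 and 199580 against 205705 and 214809. DNp63 basal cells held 21.9% (Muc1) to 91.1% (Cdh1) of the CD1 basal level of the 11 markers, with Cldn3 at 31.3%, Krt18 at 34.2%, Cldn4 at 35.9%, Cldn7 at 42.6%, Elf3 at 47.7%, Krt8 at 51.6%, Krt19 at 51.8% and Epcam at 62.5%. They held 26.4% of Foxa1, 28.4% of Stc2, 31.4% of Prlr, 35.2% of Cited1, 46.2% of Esr1 and 66.3% of Pgr, all inside the range of the markers. Foxa1 and Stc2 were below every marker but Muc1, and Pgr was above every marker but Cdh1. Luminal progenitor and alveolar markers were lower for 5 of 11, with sums of 42952 and 35567 in CD1 and 22433 and 22509 in DNp63 basal cells, and 3 were called without both second DNp63 libraries. Fibroblast marker sums were 16842 and 46520 against 69495 and 92675. Of these 9 markers none passed in limma or by voom, 4 had an unadjusted p under 0.05, and their median difference was 1.58. The part of these markers in the result was not tested.

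**Figure D3:**
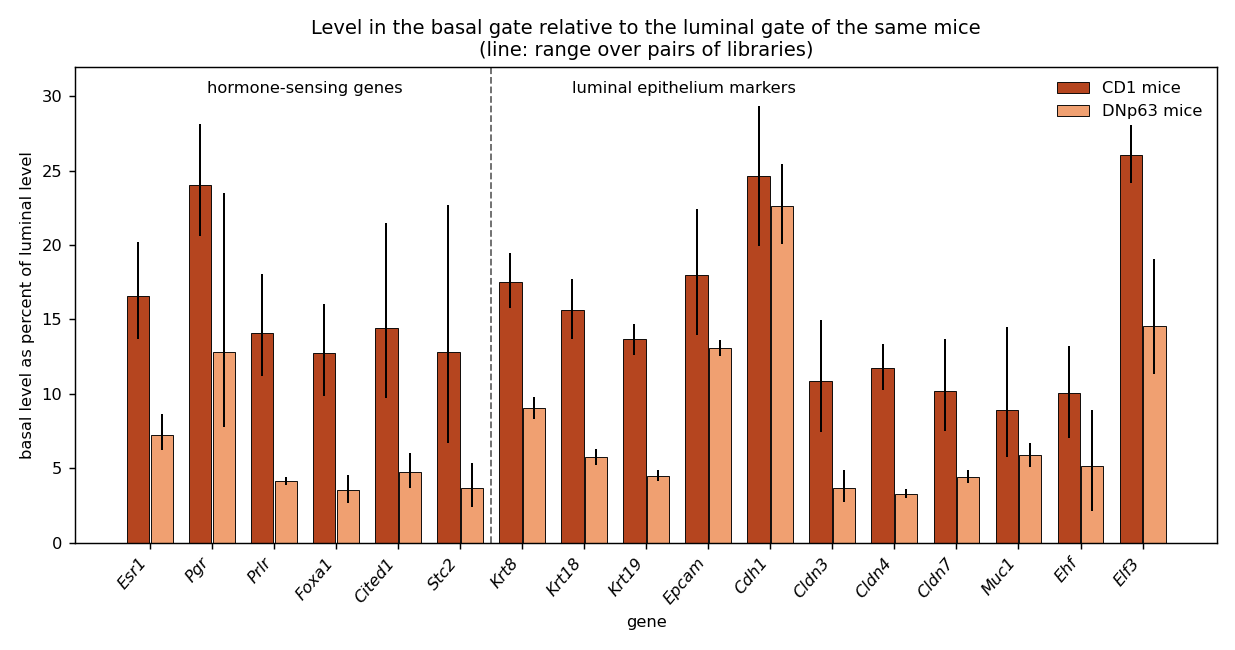
Mean basal level as a percent of the mean luminal level of the same mice (bars, dark for CD1 and light for DNp63 mice, lines for the range over pairs of libraries), for 6 hormone-sensing genes and 11 luminal epithelium markers. Prlr stands at 14.1% in CD1 and 4.15% in DNp63 mice and Krt18 at 15.7% and 5.73%.

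Set against the luminal gate of the same mice, the basal level of the 6 genes that were lower in the basal gate of both kinds of mice with no overlap (all but Tbx3, Calcr, Greb1 and Tnfsf11) was compared with that of the luminal markers. These 6 were taken for being lower, so that they share this pattern is no result. In CD1 mice basal cells held 12.8% of the luminal level of Foxa1 and of Stc2, 14.1% of Prlr, 14.4% of Cited1, 16.6% of Esr1 and 24.0% of Pgr. The 11 luminal markers held 8.89% to 26.0%, with a median of 13.7%, so the 6 genes lay inside the range of the markers. In DNp63 mice the shares were 3.56% for Foxa1, 3.68% for Stc2, 4.15% for Prlr, 4.74% for Cited1, 7.23% for Esr1 and 12.8% for Pgr, and the markers held 3.27% to 22.6% with a median of 5.73%. Tbx3 was outside both ranges, with 66.8% in CD1 and 90.9% in DNp63 mice.

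The 2 gates were also compared within DNp63 mice. Of the 10 genes 7 were lower in DNp63 basal than in DNp63 luminal cells, where 49.2% of all genes tested were called (24.9% higher and 24.4% lower). The largest differences were those of Foxa1 (-4.78 ± 0.22, 27.4-fold), Stc2 (-4.74 ± 0.38, 26.7-fold) and Prlr (-4.56 ± 0.17, 23.6-fold), followed by Cited1 (-4.34), Esr1 (-3.72), Greb1 (-3.47) and Pgr (-2.85). Greb1 passed here (adjusted p = 0.0106) but not without the first DNp63 luminal library (-3.40, adjusted p = 0.0526) or the first DNp63 basal library (-2.95, adjusted p = 0.0792), nor without both second DNp63 libraries (-4.01, adjusted p = 0.0931). The fitted difference of Calcr, which entered only through its basal values, was 3.61. Tbx3 differed by -0.11 (interval -0.52 to 0.30) and Tnfsf11 by -3.81 with an interval of -7.96 to 0.35. Without both second DNp63 libraries 7 of the 10 were called, Calcr included and Greb1 not, with -5.01 for Foxa1, -4.99 for Stc2 and -4.57 for Prlr, while calls over all genes fell from 8323 to 3739. Against CD1 luminal cells, which share no mouse type with them, DNp63 basal cells had 6 of the 10 genes lower, where 47.2% of all genes tested were called (25.1% higher and 22.2% lower). Calcr, which entered only through its basal values, is not counted among these 6. Without both second DNp63 libraries the differences were -5.22 for Foxa1, -5.19 for Stc2 and -4.55 for Prlr. Greb1 differed from CD1 luminal cells by -0.88 (adjusted p = 0.441), with its CD1 luminal values on both sides of the DNp63 basal ones.

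Whether the DNp63 minus CD1 difference itself differed between gates was tested as an interaction. Only Prlr passed (log2 -1.73 ± 0.24, adjusted p = 0.0319), where 0.343% of all genes tested were called (0.0828% higher and 0.260% lower). The DNp63 minus CD1 difference of Prlr was 0.05 in luminal and -1.68 in basal cells. The same term was -1.78 for Foxa1 (adjusted p = 0.0617), -1.72 for Stc2 (0.254), -1.55 for Cited1 (0.118), -1.13 for Esr1 (0.138) and -3.70 for Greb1 (0.298), none of which passed. Among the luminal markers 3 of 11 passed, all 3 negative (0 without both second DNp63 libraries), with Krt18 at -1.40 (adjusted p = 0.030). The Prlr call was lost on leaving out any of the 4 DNp63 or 2 CD1 basal libraries singly, with values of -1.86 to -1.60 and adjusted p of 0.124 to 0.176, and without both second DNp63 libraries it was -1.74 (adjusted p = 0.580).

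To set different genes side by side, levels were divided by the kb of exon, with all annotated exons of a gene counted. These lengths can exceed those of the transcripts made, and the order of genes depends on them. Prlr led in 3 of the 4 groups. In CD1 luminal cells it stood at 4985 normalised reads per kb, followed by Cited1 at 3158 and Foxa1 at 2965, whose library values overlapped, then Stc2 at 1402, Pgr at 817, Esr1 at 599 and Tbx3 at 344. Tnfsf11 at 66.0 and Greb1 at 27.9 overlapped each other, and Calcr was last at 0.51. The order was the same in DNp63 luminal cells, where Stc2 overlapped Pgr and Pgr overlapped Esr1. In CD1 basal cells Prlr was at 701, Cited1 at 456 and Foxa1 at 378, which overlapped each other, and Tbx3 at 230. Pgr (196) and Stc2 (180) overlapped, and Esr1 was at 99.2, above Calcr (37.4), Greb1 (20.3) and Tnfsf11 (17.4), which overlapped in turn. In DNp63 basal cells Tbx3 came first at 279, with Prlr at 220, Cited1 at 160, Pgr at 130, Foxa1 at 99.8, Stc2 at 51.1 and Esr1 at 45.8, and Cited1, Pgr and Foxa1 overlapped along that order, as did Stc2 and Esr1. Pgr stood above Esr1 per kb in each group by its mean. Before division by length the mean of Esr1 was above that of Pgr in CD1 luminal cells (8178 against 6985). In DNp63 luminal cells the 2 means were nearly equal (8664 against 8680). In the basal gates Pgr was above Esr1 (1679 against 1355.5 in CD1 and 1113 against 626 in DNp63 cells).

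**Figure D4:**
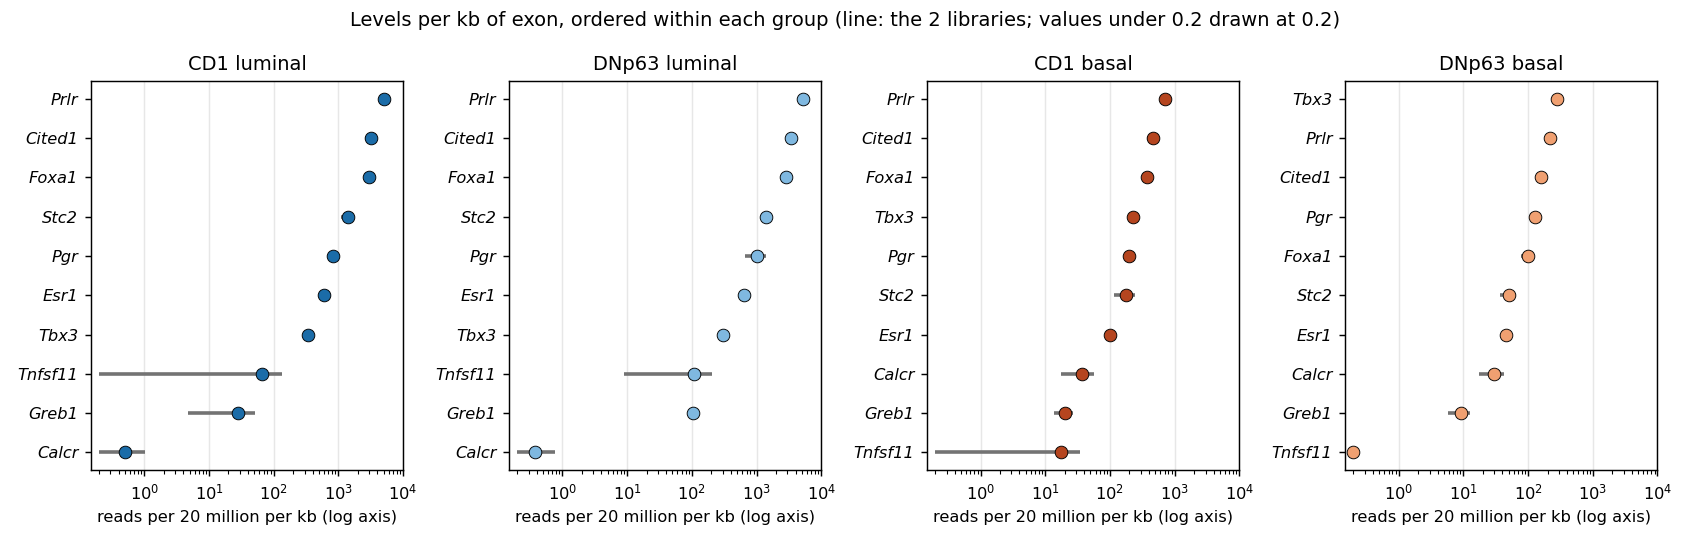
Levels per kb of exon on a log axis, with the genes of each group ordered from the highest mean down (point for the mean, line between the 2 libraries, with values near 0 drawn at the left edge). Prlr is first in 3 groups, and Tbx3 is first in DNp63 basal cells at 279.

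Members also differed in how far the 2 libraries of a group lay apart. Tnfsf11 was at 295 in the first and 0 in the second CD1 luminal library, at 456 and 20 in the DNp63 luminal ones and at 78 and 0 in the CD1 basal ones, so in each of these 3 groups the first library was the high one. As reads these are 83 and 0, 164 and 5, and 17 and 0. On the log2 scale the 2 CD1 luminal libraries lay 5.27 apart for Tnfsf11 and 3.24 for Greb1, where the median gene tested lay 0.31 apart. In DNp63 luminal cells Greb1 lay 0.03 apart, Pgr 1.06 and the median gene 0.21. Esr1 lay 0.32 apart in CD1 luminal and 0.49 in DNp63 luminal cells.

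Calca, which encodes calcitonin, the ligand of Calcr, and was singled out after its values were seen, was at 2302 and 15 in CD1 luminal cells, 125 and 20 in their DNp63 counterpart, 445 and 4 in CD1 basal cells and 0 in both DNp63 basal libraries. Like Tnfsf11, it was thus higher in the first library of the CD1 luminal, DNp63 luminal and CD1 basal groups. Calca was highest in the first CD1 luminal library and Tnfsf11 in the first DNp63 luminal one. This is a description of 8 libraries. Fkbp5, a progesterone and glucocorticoid response gene, was also higher in the first library of these 3 groups, at 1121 and 393, 1410 and 302, and 422 and 232. It was higher in the first DNp63 basal library too (338 and 218). Zbtb16, counted with the estrogen and progesterone response genes below, was at 1525 and 1697 in CD1 luminal and 527 and 643 in CD1 basal cells. In DNp63 luminal cells it was at 2334 and 411. The ligand Rspo1 was at 479 and 23 in CD1 luminal and 87 and 24 in CD1 basal cells, but at 217 and 282 in DNp63 luminal cells. Wnt4 and Areg, ligands placed beside Tnfsf11 in the paracrine path, lay closer together. Wnt4 was at 5447 and 4590 in CD1 luminal, 6006 and 4132 in DNp63 luminal and 966 and 759 in CD1 basal cells. Areg was at 26480 and 14503, at 16940 and 17603, and at 4057 and 2001 in the same order. Pgr, whose product induces Tnfsf11, was at 7642 and 6328 in CD1 luminal cells and higher in the second DNp63 luminal library (11770) than in the first (5590).

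**Figure D5:**
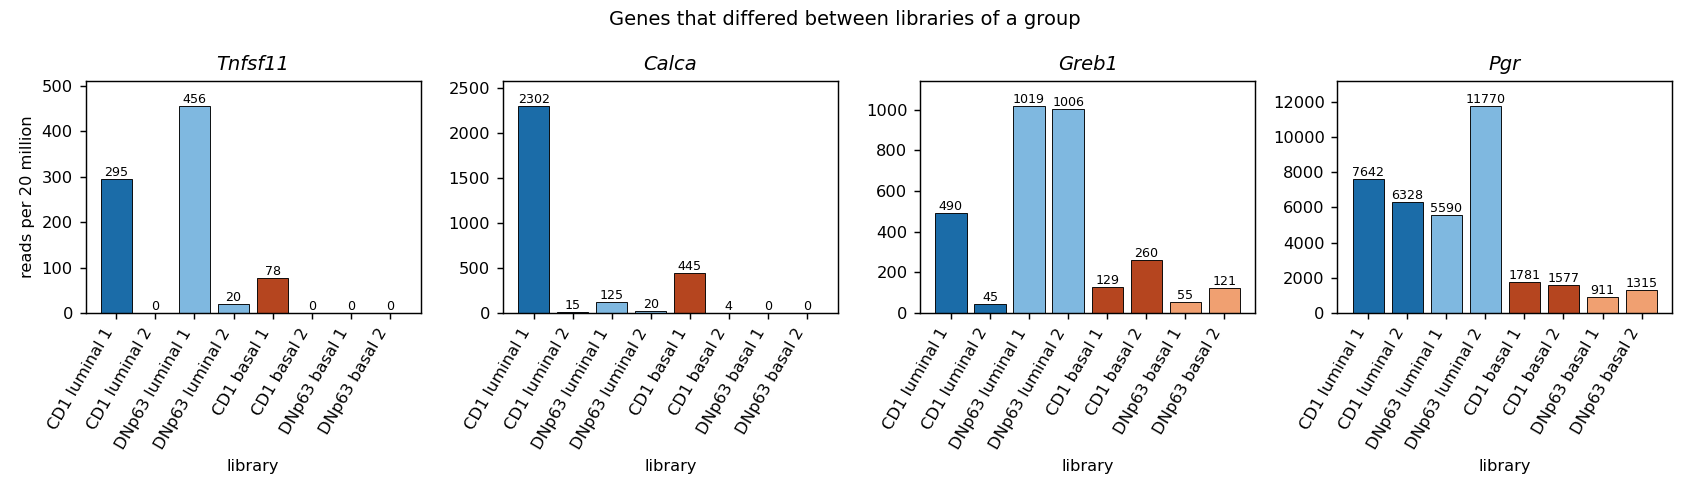
Bars give normalised reads (per 20000000) in each of the 8 libraries for Tnfsf11, Calca, Greb1 and Pgr. Tnfsf11 and Calca are higher in the first than in the second library of CD1 luminal, DNp63 luminal and CD1 basal cells, while Greb1 and Pgr have no such order.

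Other genes of these pathways were read from lists, which do not contain the 10. Among 23 other nuclear and hormone receptors, 10 were higher and 2 lower in the basal gate of CD1 mice, and their median log2 difference was 0.39. None passed in limma between DNp63 and CD1 cells of either gate, where 8 (luminal) and 3 (basal) had an unadjusted p under 0.05 and voom called 1 and 0. The largest were Oxtr, the oxytocin receptor of contracting myoepithelium, at 1398 and 404 in luminal and 22057 and 21794 in basal cells (4.84, adjusted p = 5.4e-05), and Ramp2, described with Calcr. Of 30 partners and coregulators of the steroid receptors, 7 were higher and 8 lower in CD1 basal cells, and again none passed in limma in either DNp63 comparison with CD1 cells (6 in luminal and 3 in basal cells at an unadjusted p under 0.05, and 1 and 0 by voom). Gata3, a luminal factor that acts with Foxa1 and Esr1, was at 3284 and 3446 in luminal and 2070 and 2404 in basal cells (-0.60, adjusted p = 0.019). Tbx2, the close relative of Tbx3, was at 22 and 86 in luminal and 280 and 456 in basal cells (2.77, adjusted p = 0.0029).

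In the 24-gene list of prolactin signal transduction, 6 were higher and 5 lower in CD1 basal cells, with a median of -0.03. The transducers themselves did not pass: Stat5a differed by 0.21 (adjusted p = 0.44), Stat5b by -0.02 (0.92) and Jak2 by -0.05 (0.74). Elf5, a prolactin-induced factor of alveolar cells, was at 3415 and 3731 in luminal and 358 and 292 in basal cells (-3.45, adjusted p = 1e-05). In DNp63 luminal cells 1 gene of the list was higher and 4 were lower, and its median was -0.25 beside 0.01 for all genes tested. Jak2 was at 5415 and 5506 there against 3539 and 3601 in CD1 luminal cells (0.55, adjusted p = 0.027). Of the 4 lower genes, Socs2 was at 533 and 482 against 1224 and 1201 (-1.30, adjusted p = 0.0042), Socs3 at 2884 and 2802 against 5929 and 7847 (-1.32, adjusted p = 0.0036) and Cish at 611 and 685 against 954 and 1034 (-0.67, adjusted p = 0.035). These 3 genes encode proteins known to damp cytokine receptor signals. None of the 5 was called without both second DNp63 libraries. Cish was also lower in DNp63 basal than in CD1 basal cells (-0.83, adjusted p = 0.043), but voom called 0 genes of the list there.

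Of 22 paracrine signals and their receptors 20 were tested, and 11 were higher and 4 lower in CD1 basal cells, with a median of 0.93. The ligands Areg (-2.79, adjusted p = 0.00022) and Wnt4 (-2.55, adjusted p = 3.7e-05) were lower there, and Tnfrsf11a, the receptor of RANKL, was higher (529 and 508 in luminal, 1113 and 1222 in basal cells, 1.14, adjusted p = 0.0004). Wnt4 was lower again in DNp63 basal cells, at 371 and 281 against 966 and 759 (-1.40, adjusted p = 0.033), and was the 1 gene of the list called in that comparison, where voom called 0. Areg, at 953 and 827 against 4057 and 2001, did not pass (-1.69, adjusted p = 0.075). In DNp63 luminal cells 2 of the list were lower, Lgr6 (-0.94, adjusted p = 0.016) and Tnfrsf11a, at 311 and 345 (-0.71, adjusted p = 0.034). Of 30 estrogen and progesterone response genes 27 were tested, with 10 higher and 7 lower in CD1 basal cells, 2 lower in DNp63 luminal cells (Igfbp5, -1.81, adjusted p = 0.011, and Bcl2, -1.04, adjusted p = 0.016) and 1 lower in DNp63 basal cells (Wnt4, shared with the paracrine list). Of 20 genes of steroid metabolism 12 were tested, and Srd5a1, which encodes a steroid 5-alpha reductase, was higher in DNp63 luminal cells, at 259 and 349 against 68 and 38 (2.33, adjusted p = 0.015). Among 12 surface markers used to divide luminal cells, 10 were lower in CD1 basal cells, 3 in DNp63 luminal cells and 2 in DNp63 basal cells, with Slc12a2 (-1.69 and -2.15) and Cd14 (-1.71 and -2.33) in both of the last. Without both second DNp63 libraries 1 of these surface markers was called in DNp63 luminal cells, and no other list of this or the preceding 2 paragraphs had a call in either DNp63 comparison with CD1 cells. 

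The gene most like each member over the 8 libraries was taken as the one at the smallest Euclidean distance between centred log2 values, among 12347 tested genes outside the 10 with a mean of 100 or more. Esr1 was nearest to Alcam (distance 0.24), which encodes a cell adhesion molecule and was at 11077 and 14126 in luminal cells of CD1 mice, 13652 and 10639 in those of DNp63 mice, and 1923 and 2360 against 1054 and 919 in the basal gates. Tbx3 was nearest to Arhgdia (0.27), Pgr to Tmed3 (0.45), Prlr to Tmem56 (0.46), Foxa1 to Rasef (0.60), Cited1 to Areg (0.61) and Stc2 to Nectin4 (0.90). Greb1 (Defb1, 2.27) and Tnfsf11 (Gm10032, 2.49) had no near neighbour, and Calcr lay 1.04 from Rasl11a. Among the 10 genes themselves Foxa1 and Stc2 were nearest to each other (0.59), closer than either was to the gene named for it. The points share libraries and depth, and most near neighbours separate the 2 gates.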

How the data were processed

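RNA of 8 sorted cell samples was sequenced on a NovaSeq after Ovation Solo library preparation, per the labels' protocols, and the submitters' processing notes name STAR, HTSeq and GRCm38 (mm10). The sources used here give no version, annotation release or strand setting. The deposited values are scores: read counts that the authors scaled to 20000000 per library and rounded up, per the labels and the values. Reads were recovered by dividing by the value of 1 read. Values up to 400 fell on whole-read steps (100% after rounding, against 20.5% to 36.0% by chance). Because the values are not counts, log2(value + 8), scaled by trimmed means of M values, was tested with limma 3.58.1 (R 4.3.3) with an intensity trend, in 1 fit of 4 group means (4 residual and 4.69 prior degrees of freedom), for 16900 genes at 40 or more in at least 2 libraries, with Benjamini-Hochberg adjustment over all of them. The procedure was run on simulated data with independent noise and 1 spread for all genes. These lacked the shared deviations of same-numbered libraries, so the run does not bear on the calls given here. Exon lengths and coordinates came from GENCODE M21, which held 49326 of the 49671 genes, and promoters from RefSeq. The members, the lists and the rule for named genes (all 10 members, up to 2 called genes per list with the largest differences, preset partners and nearest genes) were chosen with earlier results of these data known. Calca, Calcrl, Zbtb16, Xist and the Y-linked genes were named after their values were seen. Alternatives covered the added constant, the filter, the scaling, voom on recovered reads, the trend, a replicate block and leaving out each library. Leaving out both second DNp63 libraries and a block with its own effect per mouse type were added after seeing the data.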

Additional observations from a re-analysis of the deposited data

Results flagged for a closer look

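Prlr was the hormone-sensing gene whose DNp63 minus CD1 difference differed between the gates by the test of that difference: the basal difference less the luminal one was -1.73 on the log2 scale (limma, adjusted p = 0.0319). Over all libraries left out singly this value ran from -1.93 to -1.45. As given above, the call was lost when any DNp63 or CD1 basal library was left out. In the luminal gate Prlr was at 63919 and 89018 in CD1 mice and at 78980 and 83926 in DNp63 mice, and in the basal gate at 9985 and 11534 against 3279 and 3476. General luminal marker sums in the basal gate were 36749 and 28782 in CD1 mice against 16809 and 18909 in DNp63 mice, and their part in the difference was not tested.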

How the results depend on the processing

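With 2 libraries per group, counts of calls near the threshold moved easily. Of the 4 genes called in DNp63 basal against CD1 basal cells, 2 were called with an added constant of 1, with no filter or with voom on recovered reads, 0 without the intensity trend or without both second DNp63 libraries, and 0 to 4 with single libraries left out. The 1 interaction call became 2 with an added constant of 32, 0 with no filter, without the trend or without both second DNp63 libraries, and 0 to 2 with single libraries left out. Leaving out single libraries gave 7 to 8 calls in CD1 basal against CD1 luminal, 7 to 9 in DNp63 basal against DNp63 luminal, 7 to 10 in DNp63 basal against CD1 luminal and 0 to 1 in DNp63 luminal against CD1 luminal cells. The cause of these moves was not tested. Over all genes tested, the 121 calls of DNp63 basal against CD1 basal cells ran from 3 (without the first CD1 basal library) to 677 (block with its own effect per mouse type), and were 45 with no filter, 32 without the trend, 65 with voom, 203 with a plain replicate block and 19 without both second DNp63 libraries. Of the interaction there were 58 calls, from 0 (without both second DNp63 libraries) to 502 (the same block), with 116 at an added constant of 32, 10 with no filter, 20 with voom, 17 without the trend and 128 with the plain block. The 751 calls of DNp63 luminal against CD1 luminal cells ran from 35 (without both second DNp63 libraries) to 1684 (the same block), with 442 with no filter, 420 without the trend and 314 from the compared groups alone. Without both second DNp63 libraries the calls of DNp63 basal against DNp63 luminal cells were 3739 in place of 8323, and against CD1 luminal cells 4853 in place of 7981.

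Same-numbered libraries of a mouse type deviated together (correlation 0.341 between the CD1 gates and 0.267 between the DNp63 gates), and those of different mouse types did not (-0.014 to 0.040). With a replicate block the members called were 8, 0, 4, 9, 7 and, for the interaction, 2. With a block that had its own number effect per mouse type the interaction had 5 calls (Prlr, Cited1, Foxa1, Stc2 and Esr1, adjusted p of 0.00157 to 0.0125) and DNp63 basal against CD1 basal 6. These counts include Calcr in the comparisons between gates, and those with single libraries left out can include it too.

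Directions reversed only among small or unstable differences. In DNp63 luminal against CD1 luminal cells Stc2 was 0.016 with no further scaling, Esr1 was -0.026 with median-of-ratios scaling, and without both second DNp63 libraries Pgr was -0.37 and Calcr 0.16. Without those libraries Calcr was also 0.35 in DNp63 basal against CD1 basal cells and 0.20 in the interaction. Leaving out single libraries, the DNp63 luminal minus CD1 luminal difference ran from -0.23 to 0.26 for Esr1, -0.19 to 0.29 for Prlr, -0.46 to 0.054 for Tbx3, -0.38 to 0.29 for Stc2, -0.36 to 0.22 for Calcr, -0.22 to 0.35 for Cited1, -1.46 to 3.79 for Tnfsf11 and -0.37 to 0.69 for Pgr. CD1 basal minus CD1 luminal ran from -3.54 to 1.71 for Tnfsf11 and -1.38 to 1.85 for Greb1. DNp63 basal minus DNp63 luminal ran from -0.23 to 0.011 for Tbx3, DNp63 basal minus CD1 luminal from -2.44 to 0.79 for Greb1 and from -5.25 to 0 for Tnfsf11, DNp63 basal minus CD1 basal from -1.06 to 0.58 for Calcr, and the interaction from -0.99 to 0.65 for Calcr. The luminal values of Calcr, 0 or 1 read, cannot be told from 0 at this depth.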
